A study of Mus musculus with 37 samples.

Results

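Expression of 10 genes of the Wnt pathway was followed in mouse embryonic hearts at E10.5: the ligands Wnt2, Wnt2b, Wnt4, Wnt5a, Wnt5b, Wnt9b and Wnt11, the secreted enhancer Rspo3, and the target genes Axin2 and Lef1. They were taken by symbol from the deposited table of raw read counts, which holds 25239 genes, and all 10 were found and passed the filter on low counts that left 15046 genes. The 37 libraries came from 1 cross. Fathers of genotype Stra8-iCre; Nipbl Flox/+ carry a Cre active in their germ line. Their sperm are described as bringing either the working Nipbl Flox allele or the null allele Nipbl FIN. The + allele that such fathers also hold is not named there, and the sample titles do not say which hearts carry the Flox allele. Mothers of genotype Isl1 Cre/+ have a Cre gene inserted in 1 allele of Isl1, which leaves them with a single working copy. The 4 genotypes were Nipbl +/+; Isl1 +/+ (wild_type, n = 10), Isl1 +/- (Isl1_het, n = 9), Nipbl +/- (Nipbl_het, n = 9) and Nipbl +/-; Isl1 +/- (double_het, n = 9). Every Isl1 +/- heart therefore also carries the Cre insertion. The Cre, any action of it on a Flox allele and the missing Isl1 copy cannot be told apart. The labels do not say whether a library is 1 heart or several, so p-values measure the spread between these libraries.

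Wnt proteins are secreted lipid-modified signals that bind Frizzled receptors with the co-receptors Lrp5 and Lrp6. In the branch that runs through β-catenin, receptor binding spares β-catenin from destruction, and it enters the nucleus and acts with the DNA-binding factors of the TCF and LEF family. R-spondins strengthen this signal by keeping Frizzled receptors on the cell surface. Wnt5a and Wnt11 are best known for signals that do not need β-catenin and that steer cell shape and movement, and both are needed for the outflow tract of the heart. In cardiac development the β-catenin branch keeps progenitor cells dividing, and its activity has to fall as heart muscle cells mature.

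RefSeq start sites on GRCm38.p6 were listed for 8 of the 10 genes; Wnt5a and Rspo3 were not matched. The 250 bases before the start are printed for Lef1 and Axin2, since they are the textbook transcriptional targets of the group. They are also printed for the 1 of 2 Wnt11 windows that held a TCF/LEF match. Each reads 5′ to 3′ on the strand of its gene, and capitals mark that match. The Lef1 bases are chr3:131110073-131110322 on the + strand, before the start nearest to the annotated 5′ end of the gene, those of Axin2 are chr11:108920099-108920348 on the + strand, and those of Wnt11 are chr7:98834862-98835111 on the + strand.
Lef1: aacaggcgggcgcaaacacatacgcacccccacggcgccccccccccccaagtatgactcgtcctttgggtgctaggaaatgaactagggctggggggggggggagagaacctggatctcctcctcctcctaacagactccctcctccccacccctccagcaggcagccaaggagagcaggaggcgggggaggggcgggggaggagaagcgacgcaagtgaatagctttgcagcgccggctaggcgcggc
Axin2: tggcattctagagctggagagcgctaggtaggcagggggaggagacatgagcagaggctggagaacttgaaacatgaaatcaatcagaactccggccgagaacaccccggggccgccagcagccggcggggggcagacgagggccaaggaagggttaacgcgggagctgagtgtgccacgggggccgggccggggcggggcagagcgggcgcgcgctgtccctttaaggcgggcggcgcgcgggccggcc
Wnt11: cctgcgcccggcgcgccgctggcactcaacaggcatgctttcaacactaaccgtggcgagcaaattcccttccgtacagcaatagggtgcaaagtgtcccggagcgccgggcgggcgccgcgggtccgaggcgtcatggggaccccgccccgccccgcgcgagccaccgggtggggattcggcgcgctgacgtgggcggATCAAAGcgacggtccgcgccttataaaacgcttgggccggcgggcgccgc

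These windows are rich in G and C. Over the whole window of 300 bases, which runs 50 bases past the start, GC content was 67.3% for Lef1, 70.0% for Axin2 and 71.3% for Wnt11, against a median of 52.7% over all 32851 windows. The stretches printed hold 14, 24 and 37 CG pairs in the same order. Both strands were searched for 3 spellings of the TCF/LEF site, namely CTTTGAT and the variants CTTTGTT and also CTTTGAA, which share their first 5 letters, and for CTAATG, a core bound by Isl1. CTTTGAT was present in 3.73% of all windows, CTTTGTT in 5.85%, CTTTGAA in 5.14%, at least 1 of the 3 in 13.9%, and CTAATG in 7.36%. The 8 genes had 1 window each, except Lef1 with 4, Wnt5b with 3 and Wnt11 with 2. CTTTGAT was found in 1 of the 2 Wnt11 windows, where it begins at −51 from the start and is read on the opposite strand, as ATCAAAG above. It was also found at −71 in 1 of the 3 Wnt5b windows. The shares above are per window and not per gene, so genes with several windows have more room for a match. No other spelling of the TCF/LEF site and no CTAATG was found in a window of these genes, which says only that those letters are not in these windows.

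Total counts per library ranged from 23356831 to 50974736. Each library carries a set number after the letters IVF in its label, which does not say what the number marks. Sets 2, 5 and 6 hold all 4 genotypes. Set 1 holds wild_type and Isl1_het libraries only, and set 7 holds 1 library, double_het replicate 2. Fitted changes come from edgeR quasi-likelihood models with genotype and set as terms, and the library of set 7 is fitted exactly, so double_het comparisons rest on 8 libraries. An adjusted p under 0.05 over all 15046 genes is called a change. Nipbl itself was lower, with a log2 change of −0.74 in Nipbl_het (SE 0.12, adjusted p = 0.000348, edgeR) and one of −0.82 in double_het (SE 0.12, adjusted p = 7.19e-05, edgeR). The library labelled Nipbl_het replicate 2 went against its label with 72.4 CPM of Nipbl (counts scaled to library size), where the Nipbl_het median was 37.6 CPM. Against wild_type, Isl1 differed by −0.20 in Isl1_het (SE 0.18, adjusted p = 0.877, edgeR) and by 0.32 in double_het (SE 0.20, adjusted p = 0.591, edgeR). It rose by 0.79 in Nipbl_het (SE 0.19, adjusted p = 0.0252, edgeR), so the double_het value also holds the change seen with Nipbl loss. Against Nipbl_het, the Isl1 change in double_het was negative and was not called. Isl1 levels therefore do not check the Isl1 +/- labels, and whether reads of the disrupted allele are counted is not given in the sources used here. In bulk hearts, fewer cells of a type and less RNA per cell cannot be told apart.

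The ligands and targets spanned a wide range of levels in wild_type hearts. Per length, as TPM over 10 wild_type libraries, Wnt2 had the highest median at 42.3 TPM, followed by Rspo3 at 39.3 TPM and Wnt11 at 33.2 TPM. Wnt5a stood at 19.4 TPM, Wnt4 at 14.3 TPM and Wnt5b at 12.6 TPM. Lower still were Lef1 at 5.69 TPM, Axin2 at 4.27 TPM, Wnt2b at 3.80 TPM and Wnt9b at 1.56 TPM. Some neighbours in this order did not separate: Wnt2 was above Rspo3 in 6 of 10 wild_type libraries, Wnt4 above Wnt5b in 6 of 10, and Wnt5a above Wnt4, Lef1 above Axin2 and Axin2 above Wnt2b in 7 of 10 each. The other 4 steps held in 10 of 10 libraries: Rspo3 above Wnt11, Wnt11 above Wnt5a, Wnt5b above Lef1 and Wnt2b above Wnt9b.

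Levels in wild_type hearts also varied with the set. The mean of Wnt9b was 0.803 CPM in the 3 wild_type libraries of set 1, where its highest value was 0.911 CPM, and 2.97, 2.28 and 3.00 CPM in sets 2, 5 and 6. Wnt2b was lowest in set 1 at 3.87 CPM and highest in set 6 at 8.35 CPM. Wnt5a went from 44.2 CPM in set 1 to 65.2 CPM in set 6. Other genes were highest in set 1: Rspo3 averaged 52.7 CPM there and 43.4, 40.6 and 34.5 CPM in sets 2, 5 and 6, and Lef1 averaged 18.6 CPM against 15.6, 16.1 and 17.0 CPM. Set 1 holds no Nipbl +/- library, and its wild_type and Isl1_het libraries enter the comparisons through the set term.

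**Figure D1:**
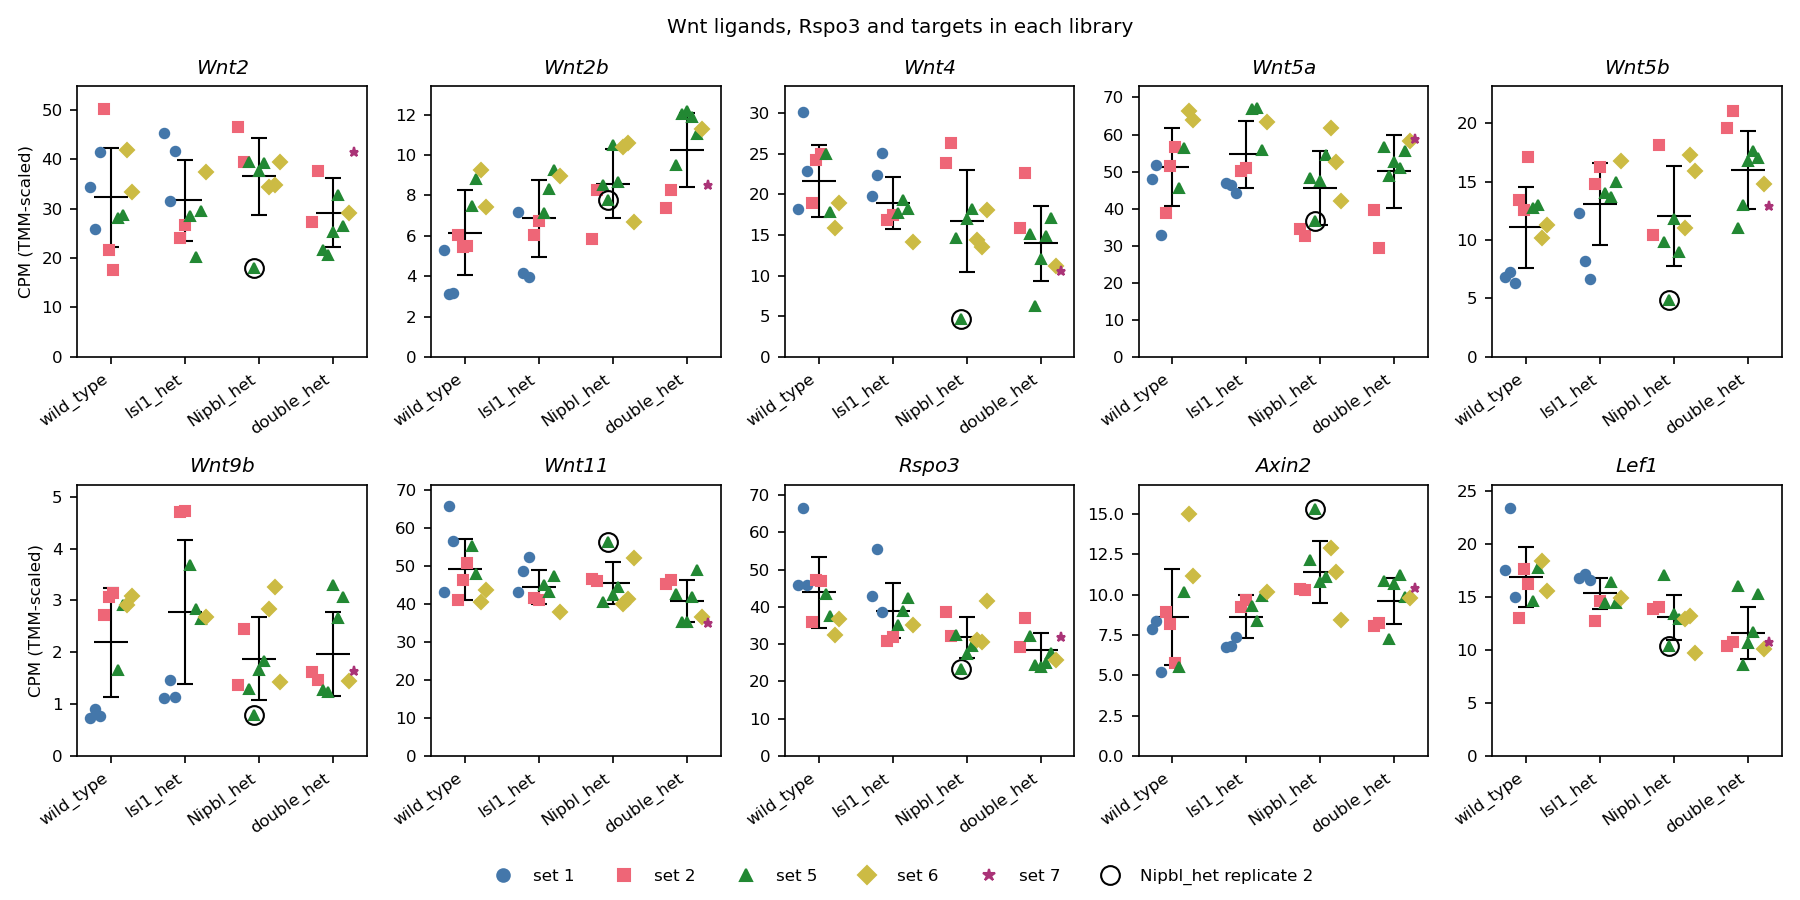
Level of each of the 10 genes in every library, in CPM after TMM scaling, by genotype. Points are libraries, their shape and colour give the set, the horizontal line is the group mean, the bar is the SD, and the open circle marks the library labelled Nipbl_het replicate 2. For Rspo3 and Lef1 the double_het points lie mostly below the wild_type points, and for Wnt2b 6 of 9 lie above all of them.

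Double heterozygous hearts had less Lef1 and Rspo3 and more Wnt2b than wild_type hearts. Lef1, a nuclear factor that binds DNA as the partner of β-catenin and is itself switched on by the pathway, fell by 29.8%. Rspo3, a ligand of the Lgr receptors, fell by 29.0%. Wnt2b, a close relative of Wnt2 that signals through β-catenin, rose by 44.5%. These 3 of 10 genes were called, 1 up and 2 down, where 2.6% of all genes tested were called (1.77% up and 0.824% down). At an unadjusted p under 0.05 there were 7 of 10, against 11.6% of all genes, and DESeq2 called 3 of 10, against 3.5% of all genes it gave an adjusted p.

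Lef1 lies at chr3:131110471-131224356 on the + strand of GRCm38. Its lowest, median and highest values were 13.0, 16.9 and 23.4 CPM in wild_type, 12.7, 14.9 and 17.1 CPM in Isl1_het, 9.74, 13.2 and 17.0 CPM in Nipbl_het, and 8.58, 10.7 and 16.0 CPM in double_het. The medians step down from wild_type through both single heterozygotes to double_het, before set is taken into account. With set in the model, Lef1 changed by −0.17 in Isl1_het (SE 0.10) and −0.32 in Nipbl_het (SE 0.11), neither called. The ranges of wild_type and double_het overlap, with 7 of 9 double_het libraries below every wild_type library and 9 of 9 below the wild_type mean. The fitted change in double_het was −0.51 (SE 0.12, adjusted p = 0.0103, edgeR). Taken set by set, double_het differed from wild_type by −0.56 in set 2, −0.41 in set 5 and −0.74 in set 6 (means of log2 CPM). These sets hold 2, 5 and 1 double_het libraries against 3, 2 and 2 of wild_type.

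Rspo3 lies at chr10:29452416-29535867 on the − strand. From lowest through median to highest, it stood at 32.4, 44.7 and 66.4 CPM in wild_type, 30.9, 38.6 and 55.4 CPM in Isl1_het, 23.3, 31.2 and 41.5 CPM in Nipbl_het, and 23.8, 27.5 and 37.1 CPM in double_het. Of the double_het libraries, 8 of 9 were below every wild_type library, and replicate 8 was the exception. Of the Nipbl_het libraries, 7 of 9 were. The change in double_het was −0.49 (SE 0.11, adjusted p = 0.0100, edgeR), and the 3 sets gave −0.38, −0.61 and −0.43.

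Wnt2b lies at chr3:104945272-104961921 on the − strand. It had lowest, median and highest values of 3.12, 5.76 and 9.25 CPM in wild_type, 3.94, 7.13 and 9.26 CPM in Isl1_het, 5.85, 8.53 and 10.6 CPM in Nipbl_het, and 7.39, 11.0 and 12.2 CPM in double_het. The medians rise in the same order in which those of Lef1 and Rspo3 go down, but they pool sets that the genotypes hold in unlike numbers. With set in the model, Wnt2b changed by 0.19 in Isl1_het and 0.23 in Nipbl_het (SE 0.12 each), neither called. Whether these 2 genotypes differ was not tested. In double_het, 6 of 9 libraries were above every wild_type library and 9 of 9 above the wild_type mean. The change was 0.53 (SE 0.13, adjusted p = 0.0142, edgeR). The differences within sets 2, 5 and 6 were nearly equal at 0.46, 0.47 and 0.44, the last from 1 double_het library. All 3 calls in double_het held whichever of the 37 libraries was left out. They did not hold without set 2, Rspo3 and Wnt2b did not pass without set 5, and Lef1 did not pass without set 6.

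The other 7 genes were not called in double_het. Wnt4, a ligand known from kidney and gonad development, had lowest, median and highest values of 15.9, 20.9 and 30.2 CPM in wild_type and 6.23, 14.9 and 22.7 CPM in double_het, with 7 of 9 double_het libraries below every wild_type library. Its fitted change was −0.48 (SE 0.20, adjusted p = 0.278, edgeR). Without the library labelled Nipbl_het replicate 2, a library outside both groups, doubted for its Nipbl level, that still feeds the common dispersion and the estimate for set 5, it was −0.52 and passed (adjusted p = 0.0297, edgeR). Wnt5b, the close relative of Wnt5a, had a median of 11.9 CPM in wild_type (range 6.29 to 17.1) and 16.8 CPM in double_het (11.1 to 21.1), and a change of 0.46 (SE 0.16, adjusted p = 0.148, edgeR). Wnt11, an outflow tract ligand, was below the wild_type mean in 9 of 9 double_het libraries, with a change of −0.20 (SE 0.09, adjusted p = 0.320, edgeR). Values for the remaining genes were −0.33 for Wnt9b, −0.22 for Wnt5a, −0.06 for Wnt2 and 0.03 for Axin2, with adjusted p from 0.404 to 0.967 (edgeR). Axin2, a scaffold protein of the β-catenin destruction complex and the most used readout of the pathway, had no detectable difference, with 9 of 9 double_het libraries inside the wild_type range. Whether its change differs from that of Lef1 was not tested.

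**Figure D2:**
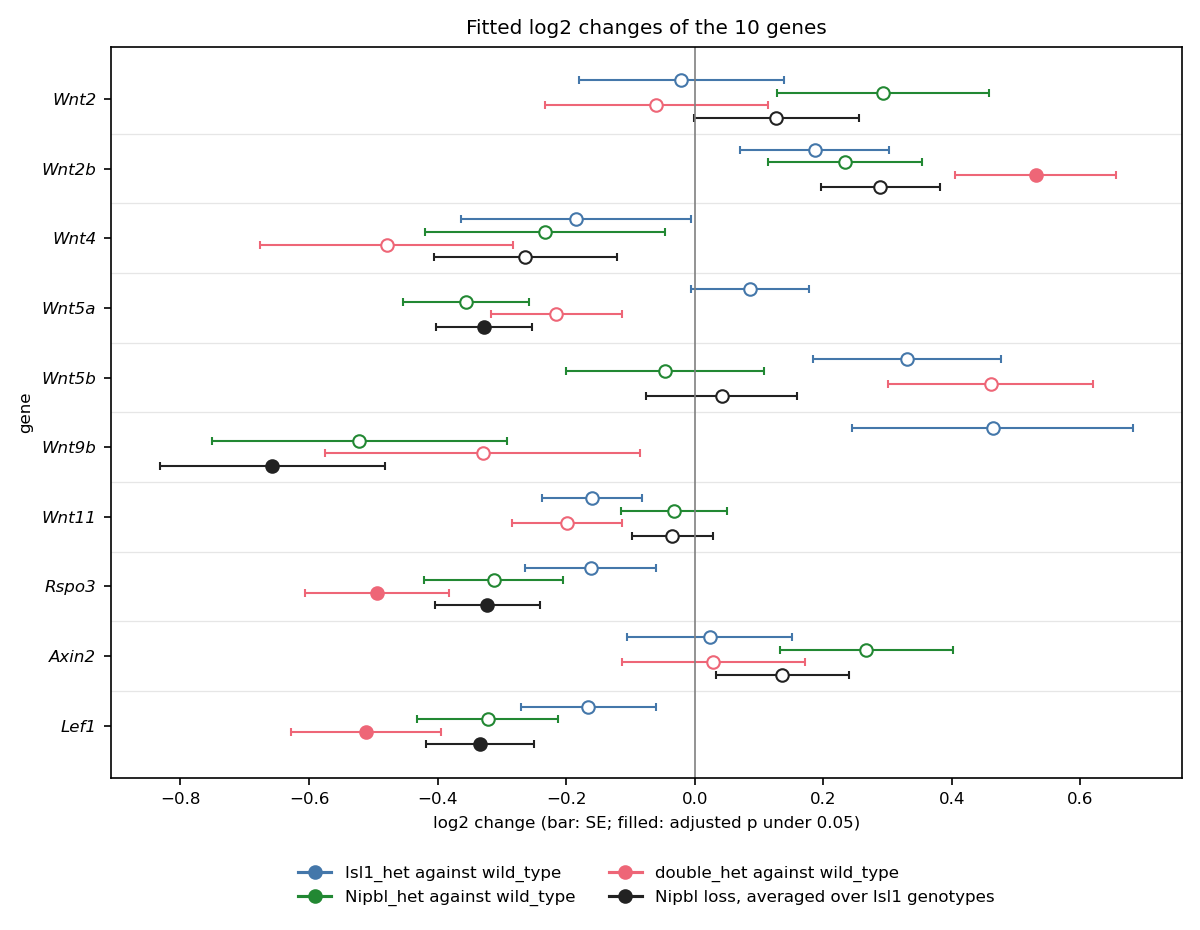
Fitted log2 change of each gene for Isl1_het, Nipbl_het and double_het against wild_type and for Nipbl loss averaged over both Isl1 genotypes. Bars are standard errors and filled points have an adjusted p under 0.05 (edgeR). Filled points are Lef1, Rspo3 and Wnt2b in double_het, and Lef1, Rspo3, Wnt5a and Wnt9b in the average. The 3 comparisons with wild_type share its 10 libraries.

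In Nipbl_het hearts, which lack 1 Nipbl copy alone, 0 of 10 genes passed in edgeR, where 1.71% of all genes were called (1.2% up and 0.518% down), with 4 of 10 at an unadjusted p under 0.05, against 15.1% of all genes. DESeq2 called 1 of 10, Wnt5a, and 3.08% of all genes. Wnt5a, the main ligand of the branch that does not need β-catenin, had the smallest p. It is at chr14:28504750-28527448 on the + strand. Lowest, median and highest values were 33.0, 51.6 and 66.4 CPM in wild_type and 32.6, 47.5 and 61.8 CPM in Nipbl_het, ranges that overlap almost wholly before set is taken into account. Its fitted change was −0.36 (SE 0.10, adjusted p = 0.0517, edgeR), and within sets 2, 5 and 6 it was −0.53, −0.13 and −0.34. It passed in 10 of the 37 fits with 1 library left out. Lef1 had a change of −0.32 (SE 0.11, adjusted p = 0.133, edgeR) and Rspo3 one of −0.31 (SE 0.11, adjusted p = 0.137, edgeR). For Rspo3 the set differences were −0.29, −0.53 and −0.01, so set 6 showed almost none. Wnt9b, Axin2, Wnt2b, Wnt2 and Wnt4 had changes of −0.52, 0.27, 0.23, 0.29 and −0.23 with adjusted p from 0.267 to 0.584 (edgeR). Wnt11 and Wnt5b were at −0.03 and −0.05.

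The library labelled Nipbl_het replicate 2 was at an end of the range for several of these genes. Of all 37 libraries it was the lowest for Wnt4 at 4.67 CPM, Wnt5b at 4.89 CPM and Rspo3 at 23.3 CPM, and the highest for Axin2 at 15.3 CPM. For Wnt4 and Wnt5b the next lowest Nipbl_het libraries stood at 13.5 and 9.01 CPM. Without it the Nipbl_het change was −0.11 for Wnt4, 0.05 for Wnt5b, −0.27 for Rspo3, 0.21 for Axin2 and −0.32 for Wnt5a, with adjusted p from 0.0570 to 0.925 (edgeR).

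Averaged over both Isl1 genotypes, Nipbl loss went with lower Wnt5a, Lef1, Rspo3 and Wnt9b. This comparison sets Nipbl_het against wild_type and double_het against Isl1_het and takes the mean of both. It called 4 of 10 genes, all lower, where 4.02% of all genes were called (2.67% higher and 1.36% lower). At an unadjusted p under 0.05 there were 5 of 10, against 14.9% of all genes, and DESeq2 called 5 of 10, against 5.46%, the fifth being Wnt2b. Wnt5a fell by 20.4%, with a change of −0.33 (SE 0.07, adjusted p = 0.00680, edgeR). In sets 2, 5 and 6, 17 of 17 libraries labelled Nipbl +/-, the doubted Nipbl_het replicate 2 among them, were below the mean of the Nipbl +/+ libraries in their own set. Double_het replicate 2, alone in set 7, has no such mean and stood at 58.7 CPM. The Nipbl +/+ mean pools wild_type with Isl1_het, and 8 of 9 Isl1_het libraries had more Wnt5a than the wild_type mean of their set. Against wild_type alone, 8 of 9 Nipbl_het libraries were below the mean of their set, but 4 of 8 double_het libraries were above it and 4 below. The double_het median of 52.7 CPM was over the wild_type median of 51.6 CPM, and set 5 gave 0.06 for double_het. Lef1 fell by 20.7%, with 15 of 17 libraries below that mean, and its change was −0.33 (SE 0.08, adjusted p = 0.0165, edgeR). Rspo3 fell by 20.0%, also with 15 of 17, and its change was −0.32 (SE 0.08, adjusted p = 0.0165, edgeR). Without set 2 Rspo3 alone of the 4 calls remained (−0.40, adjusted p = 0.0444, edgeR). The Rspo3 call was lost without set 5, at −0.14, and that of Lef1 without set 6, at −0.28. Without Nipbl_het replicate 2 the changes were −0.31 for Wnt5a, −0.32 for Lef1, −0.30 for Rspo3 and −0.62 for Wnt9b, with adjusted p from 0.00389 to 0.0148 (edgeR).

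Wnt9b, a ligand made by endocardial cells of the forming valves, at chr11:103727364-103749821 on the − strand, fell by 36.6%, the largest change and the least certain one of the 4 (−0.66, SE 0.18, adjusted p = 0.0238, edgeR). Its lowest, median and highest values were 0.727, 2.81 and 3.14 CPM in wild_type, 1.12, 2.69 and 4.73 CPM in Isl1_het, 0.792, 1.65 and 3.25 CPM in Nipbl_het, and 1.23, 1.62 and 3.30 CPM in double_het. Libraries of all 4 genotypes overlap, and the lowest values of wild_type and Isl1_het come from set 1. In 14 of the 17 libraries labelled Nipbl +/- in sets 2, 5 and 6 it was below the mean of the Nipbl +/+ libraries of its set. The lowest of the 17, at 0.792 CPM, is the doubted Nipbl_het replicate 2. The call was lost without wild_type replicate 5, Isl1_het replicate 6, double_het replicate 6 or double_het replicate 8, with values between −0.73 and −0.61 over all fits with 1 library left out. The calls of Wnt5a and Wnt9b also need the set term: without it the values of both did not pass.

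Wnt2b averaged 0.29 (SE 0.09, adjusted p = 0.0748, edgeR), and 14 of 17 libraries lay over the Nipbl +/+ mean of their set. It passed at 0.30 without the library labelled Nipbl_het replicate 2 (adjusted p = 0.0348, edgeR). Wnt4 was at −0.26, Axin2 at 0.14, Wnt2 at 0.13, Wnt5b at 0.04 and Wnt11 at −0.035, with adjusted p from 0.402 to 0.922 (edgeR).

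**Figure D3:**
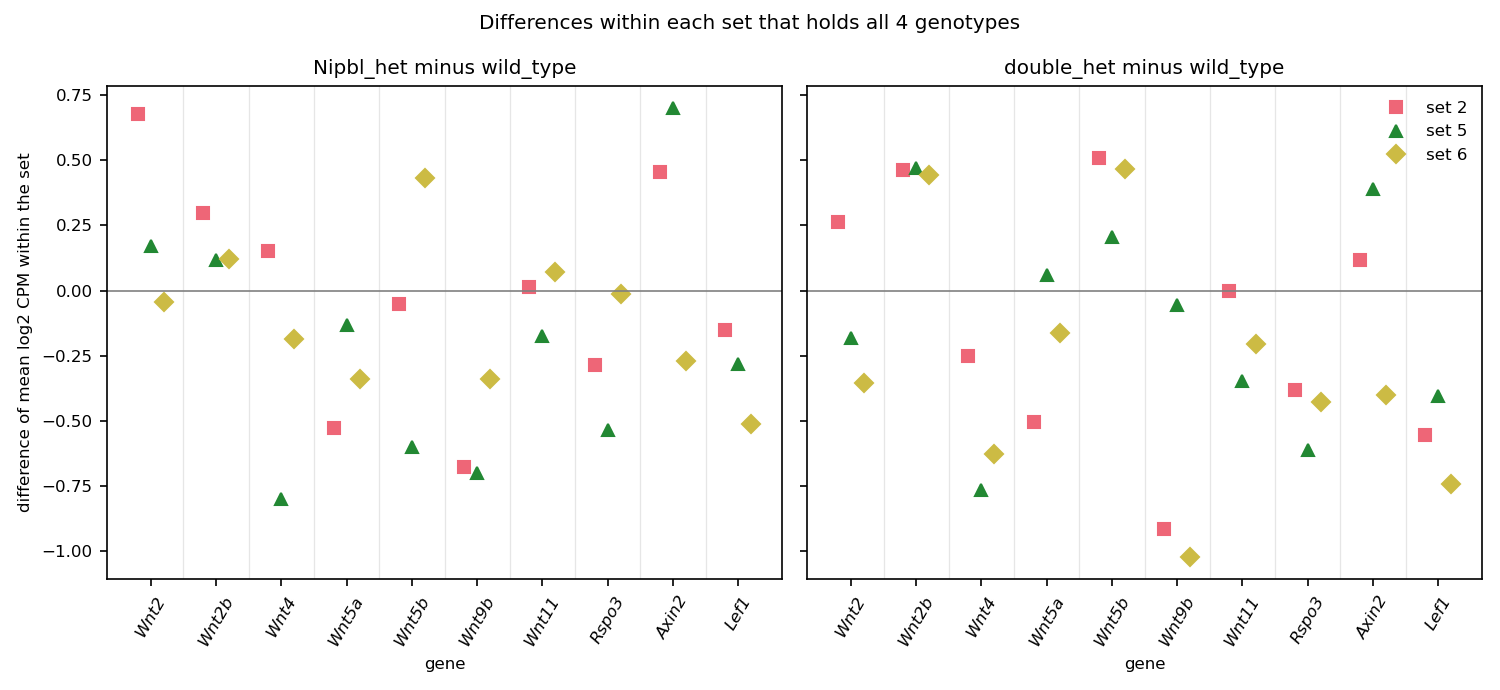
Mean log2 CPM of Nipbl_het minus wild_type (left) and of double_het minus wild_type (right) within each set that holds all genotypes. Each point is 1 set, with 1 to 5 libraries per genotype. In double_het all 3 sets lie below 0 for Lef1, Rspo3, Wnt4, Wnt9b and Wnt11 (set 2 of Wnt11 at −0.0033) and above 0 for Wnt2b and Wnt5b, and for Axin2 set 6 lies on the other side from sets 2 and 5.

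With loss of 1 Isl1 copy, edgeR called none of the 10 genes, alone or averaged, and DESeq2 called Wnt5b in the average. In Isl1_het against wild_type 0 of 10 passed (edgeR and DESeq2), with 3 of 10 at an unadjusted p under 0.05, against 5.89% of all genes. Of all genes tested 0% were called by edgeR and 0.0739% by DESeq2. Those 3 were Wnt5b at 0.33 (SE 0.15), Wnt9b at 0.46 (SE 0.22) and Wnt11 at −0.16 (SE 0.08), each with an adjusted p of 0.835 (edgeR). Wnt5b had a median of 14.0 CPM in Isl1_het against 11.9 CPM in wild_type. Its values lie inside the wild_type range in 9 of 9 Isl1_het libraries.

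Averaged over both Nipbl genotypes, Isl1 loss called 0.173% of all genes (0.146% higher and 0.0266% lower), 0 of the 10 genes by edgeR, 5 of 10 at an unadjusted p under 0.05 (12.2% of all genes), and 1 of 10 by DESeq2 (0.759% of all genes). The smallest p was that of Wnt5b, at 0.42 (SE 0.11, adjusted p = 0.0983, edgeR). Of the libraries with Isl1 loss in sets 1, 2, 5 and 6, 16 of 17 were above the mean of the Isl1 +/+ libraries of their set. Wnt5b was the gene called by DESeq2 (0.41, adjusted p = 0.0329). Wnt11 averaged −0.16 (SE 0.06, adjusted p = 0.273, edgeR), with 15 of 17 libraries below. Erythroid markers moved with this contrast: 6 of 6 had an unadjusted p under 0.05 and 0 were called, with a median change of 1.04 (and of 1.53 for double_het against Nipbl_het, also 6 of 6). Their summed level ran from 1845 to 105500 CPM in wild_type, 815.7 to 47360 in Isl1_het, 484.2 to 23010 in Nipbl_het and 1293 to 53640 in double_het. Wnt11 had an r of −0.53 with that list over 36 set-centred libraries and −0.46 with genotype removed too, and Wnt5b one of 0.44 and 0.27. The part of blood cells in these values was not tested. In the same contrast 7 of 7 epicardial markers were positive, 6 at an unadjusted p under 0.05, with a median of 0.30 and Upk3b called. Of 7 endocardial and endothelial markers 7 were positive and 3 had such a p. Of 7 ventricular markers 6 were negative and 4 had such a p, and of 8 second heart field genes 7 and 3. Of all genes 45.0% were positive. The parts of these cell types were not tested either. Wnt2b, Lef1 and Rspo3 averaged 0.24, −0.18 and −0.17, with adjusted p from 0.269 to 0.361 (edgeR). Lef1, Rspo3 and Wnt2b had the same sign in the Isl1 average as in the Nipbl average. Wnt5a and Wnt9b had the opposite sign, at 0.11 and 0.33 for Isl1 against −0.33 and −0.66 for Nipbl. Whether the averages for Nipbl and Isl1 differ was not tested.

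Double_het was also set against each single heterozygote. Against Isl1_het, edgeR and DESeq2 called 0 of 10 genes, with 5 of 10 at an unadjusted p under 0.05 (7.49% of all genes). Over all genes edgeR called 0.957% (0.532% higher and 0.425% lower) and DESeq2 1.57%. Those 5 were Wnt9b at −0.79 (SE 0.24), Lef1 at −0.35 (SE 0.12), Rspo3 at −0.33 (SE 0.11), Wnt5a at −0.30 (SE 0.10) and Wnt2b at 0.34 (SE 0.13), with adjusted p from 0.148 to 0.325 (edgeR). Without the library labelled Nipbl_het replicate 2, Wnt9b was at −0.81 and passed (adjusted p = 0.0475, edgeR). Against Nipbl_het, 0% of all genes and 0 of 10 were called by edgeR, DESeq2 also called 0 of 10, and 3 of 10 had an unadjusted p under 0.05, against 9.01% of all genes. These were Wnt5b at 0.51 (SE 0.16, adjusted p = 0.413, edgeR), Wnt2b at 0.30 and Wnt2 at −0.35.

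The interaction asks whether the change in double_het departs from the sum of both single changes on the log2 scale. It called 0% of all genes and 0 of the 10 (edgeR and DESeq2), with 0 of 10 at an unadjusted p under 0.05, against 2.73% of all genes. The farthest from 0 were Wnt2 at −0.33 (SE 0.23), Wnt9b at −0.27 (SE 0.32) and Axin2 at −0.26 (SE 0.18), with adjusted p of 0.999 (edgeR). For the 3 genes called in double_het the interaction was −0.02 for Lef1 (SE 0.15), −0.02 for Rspo3 (SE 0.15) and 0.11 for Wnt2b (SE 0.17). An SE of 0.15 is about as large as the changes of Lef1 and Rspo3 in Isl1_het, which were −0.17 and −0.16, so a departure of that size would not be detectable.

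The rest of the pathway was followed in a list of 108 genes, the 10 included, of which 92 were tested. In Nipbl_het 3 of the 92 rose and 0 fell, in double_het 4 rose and 3 fell, and in the Nipbl average 4 rose and 6 fell. Of all genes tested, 1.71%, 2.6% and 4.02% were called in these comparisons. The median change over the 92 was −0.02, 0.01 and −0.01, against 0.0080, −0.0019 and 0.0053 over all genes tested. The called genes were spread over ligands, R-spondins, receptors, inhibitors, intracellular transducers, nuclear factors and targets. Among canonical targets, 16 of 18 tested, Lef1 alone was called, in double_het and in the Nipbl average.

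Among ligands, Wnt9a rose by 0.64 in double_het (SE 0.13, adjusted p = 0.00237, edgeR). From lowest to highest, with the median between, its values were 2.91, 5.12 and 5.75 CPM in wild_type and 6.52, 8.32 and 9.28 CPM in double_het. These groups do not overlap in CPM. They do in TPM, with up to 5.84 TPM in wild_type and at least 4.06 TPM in double_het. In Nipbl_het it stood at 0.41 (adjusted p = 0.0723, edgeR), and averaged over Isl1 genotypes it rose by 0.42 (adjusted p = 0.00541, edgeR). Wnt9a and Wnt9b, which are close paralogs, thus moved in opposite directions in the Nipbl average. Rspo1, another R-spondin, rose by 0.60 in double_het (SE 0.16, adjusted p = 0.0387, edgeR), whereas Rspo3 fell. Of its double_het libraries, 6 of 9 exceeded every wild_type library. The Rspo1 call was lost in 20 of the 37 fits with 1 library left out.

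Among receptors, Fzd7, a Frizzled expressed in many embryonic tissues, rose by 0.76 in Nipbl_het (SE 0.19, adjusted p = 0.0311, edgeR) and by 0.52 in the Nipbl average (adjusted p = 0.0421, edgeR). Its median was 21.8 CPM in wild_type and 41.3 CPM in Nipbl_het, but the highest Nipbl_het value, 97.9 CPM, was the library labelled Nipbl_het replicate 2. Without that library the change was 0.56 in Nipbl_het (adjusted p = 0.0350, edgeR). In double_het it was 0.46 and did not pass with all libraries (adjusted p = 0.328, edgeR). The call in Nipbl_het was lost without wild_type replicate 4, 9 or 10 or Nipbl_het replicate 9, and the averaged call in 12 of 37 such fits.

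Secreted inhibitors moved both ways. Dkk3, a divergent member of the Dickkopf family, rose in Nipbl_het (0.58, SE 0.13, adjusted p = 0.0139, edgeR), in double_het (0.52, SE 0.14, adjusted p = 0.0293, edgeR) and in the average (0.55, SE 0.10, adjusted p = 0.000850, edgeR). Its lowest, median and highest values were 95.3, 130.5 and 147.2 CPM in wild_type, 144.3, 191.9 and 443.1 CPM in Nipbl_het, and 130.9, 199.0 and 276.5 CPM in double_het. In each of these groups 8 of 9 libraries were above every wild_type library. The value of 443.1 CPM is the library labelled Nipbl_het replicate 2, without which the Nipbl_het change was 0.41 (adjusted p = 0.00354, edgeR).

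Dkk2, which blocks Lrp5 and Lrp6 or acts on them weakly depending on the cell, fell in double_het by 1.24 as log2 (SE 0.30, adjusted p = 0.0155, edgeR) and by 0.87 in the average (adjusted p = 0.0104, edgeR). Values ran from 2.00 over a median of 2.95 to 15.5 CPM in wild_type and from 1.13 over 1.55 to 2.53 CPM in double_het, with 7 of 9 double_het libraries below every wild_type library. The wild_type library at 15.5 CPM, replicate 6, stood far above the rest. Without it the change in double_het was −0.87 (adjusted p = 0.0307, edgeR). The call in double_het was lost without double_het replicate 7 (−1.15, adjusted p = 0.0517, edgeR), and the averaged call without Isl1_het replicate 8 (−0.66, adjusted p = 0.0549, edgeR). Draxin, a secreted guidance protein that can bind Lrp6, rose by 0.80 in Nipbl_het (SE 0.19, adjusted p = 0.0200, edgeR) from a median of 0.512 CPM in wild_type to 1.02 CPM. It rose by 0.62 in the average (adjusted p = 0.00889, edgeR). Amer1, a scaffold of the destruction complex, fell in the average by 0.22 (adjusted p = 0.0405, edgeR), a call lost in 18 of 37 fits with 1 library left out.

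**Figure D4:**
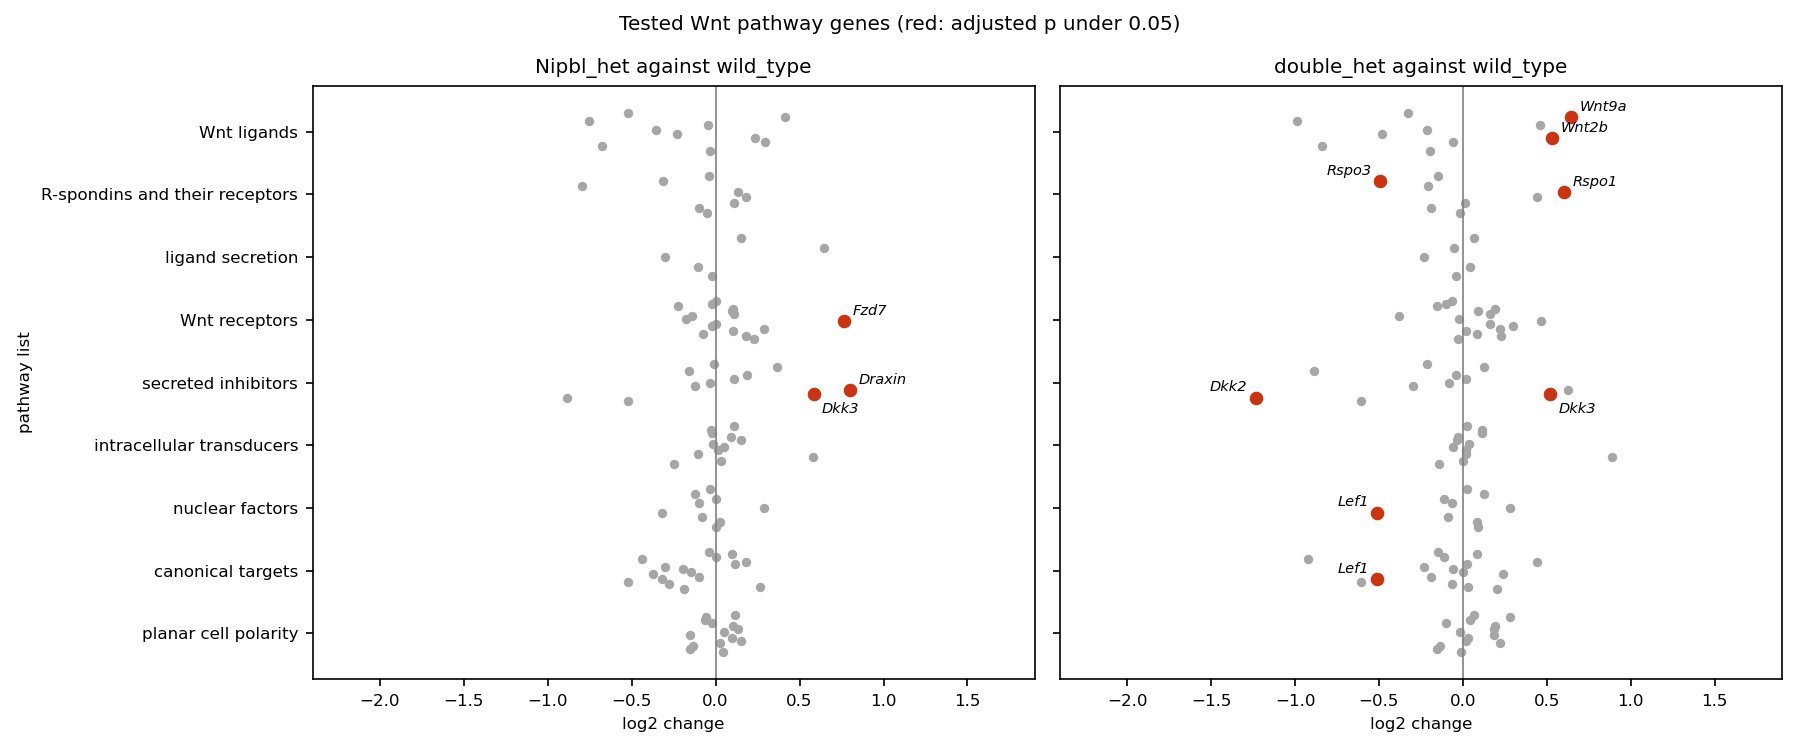
Fitted log2 change of each tested Wnt pathway gene in Nipbl_het (left) and double_het (right) against wild_type, by list. Red points have an adjusted p under 0.05 (edgeR), the vertical offset of points within a list only separates them, and a gene held by more than 1 list is drawn in each. Most genes lie close to 0, with called genes in the lists of ligands, R-spondins, receptors, inhibitors, nuclear factors and targets. The genotypes share the wild_type libraries.

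Markers of cell types moved with some of these genes. The marker lists were chosen with earlier results of these data known, so their counts of called genes are no independent support. Of 7 epicardial markers, the genes of the cell sheet that covers the heart, 7 of 7 had a positive change in double_het and 5 rose: Wt1, Tbx18, Upk1b, Upk3b and Sema3d, where 49.5% of all genes were positive and 1.77% were called higher. In Nipbl_het 7 of 7 were positive and Wt1 rose (52.2% of all genes positive, 1.2% called higher). Their summed level ran from 261.1 to 463.0 CPM in wild_type, 307.3 to 552.7 in Isl1_het, 406.6 to 613.9 in Nipbl_het and 519.0 to 674.2 in double_het, and wild_type and double_het do not overlap. None of the 7 was at 0 in every library of a group. Wnt2b followed this list across libraries: after subtracting set means, Pearson r was 0.79 and Spearman rho 0.77 over 36 libraries. It was 0.71 without the 2 libraries farthest from the median of the list, 0.64 with both set and genotype means removed, and 0.59 in the 10 wild_type libraries. Wnt5b had an r of 0.67 and a rho of 0.72 with the same list, 0.65 without the 2 farthest libraries, 0.61 with set and genotype removed, 0.56 in the 8 double_het libraries of shared sets and −0.17 within wild_type.

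Ventricular markers went the other way. Of 7 genes, 3 fell in double_het (Irx4, Hey2 and Mycn) and 6 of 7 had a negative change, and in Nipbl_het 2 fell (Irx4 and Mycn) and 7 of 7 were negative. Over all genes 0.824% were called lower in double_het and 0.518% in Nipbl_het. Their summed level ran from 13140 to 20380 CPM in wild_type, 12250 to 17570 in Isl1_het, 12200 to 15390 in Nipbl_het and 11240 to 18570 in double_het. Rspo3 had an r of 0.71 and a rho of 0.63 with that list over 36 libraries. It was 0.64 without the 2 farthest libraries, 0.61 with set and genotype removed, 0.83 in wild_type and 0.19 in the 8 double_het libraries of shared sets. Lef1 had an r of 0.39 with the ventricular list and −0.52 with the epicardial list, which became 0.057 and −0.18 with set and genotype removed. Axin2 had an r of −0.65 with the ventricular list, and −0.66 with both removed. Wnt5a had an r of 0.64 with the list of endocardium and endothelium, and Wnt9b one of 0.61 with cushion mesenchyme and 0.59 with endocardium and endothelium. Neither of these 2 lists had a called gene in Nipbl_het or in the Nipbl average. With a list of 8 second heart field genes, the progenitors that lengthen the heart tube, Wnt5a had an r of −0.67 and a rho of −0.52. For these r of Wnt5a and Wnt9b only set means were subtracted, so differences between genotypes are part of them. The second heart field list also holds Isl1, a targeted gene. In Nipbl_het 8 of 8 genes of that list had a positive change and 2 rose, Isl1 among them (52.2% of all genes positive, 1.2% called higher), and its summed level ran from 16.5 to 28.5 CPM in wild_type and from 25.9 to 46.1 CPM in Nipbl_het. Of 6 atrial markers, 5 had a positive change in Nipbl_het, in double_het and in the Nipbl average, with medians of 0.44, 0.30 and 0.27, and Sln, a regulator of the calcium pump of atrial muscle, rose in all 3. Of all genes 52.2%, 49.5% and 51.7% were positive and 1.2%, 1.77% and 2.67% called higher. Their summed level ran from 7494 to 10990 CPM in wild_type, 7953 to 11740 in Isl1_het, 7353 to 10010 in Nipbl_het and 7837 to 11390 in double_het, ranges that overlap. With this list Wnt2 had an r of 0.57, Wnt2b 0.53, Rspo3 −0.42 and Lef1 −0.39. With set and genotype removed these were 0.66, 0.35, −0.11 and −0.054, and without Nipbl_het replicate 2 they were 0.52, 0.51, −0.58 and −0.53. Of 4 liver genes tested, 4 were positive in Nipbl_het, with a median of 1.75, 3 at an unadjusted p under 0.05 and 0 called. Their summed level was at most 20.9 CPM in the other genotypes and reached 371.2 CPM in Nipbl_het, where the highest Afp value, 300.7 CPM, was that of replicate 9. The r of the liver list with Lef1, Rspo3, Wnt2b, Wnt5a and Wnt9b lay between −0.26 and 0.20. Of 4 neural crest and neuronal genes tested, Tubb3 rose in the Nipbl average, at 0.49 (adjusted p = 0.0234, edgeR). Their summed levels spanned 18.9 to 53.9 CPM over the 4 genotypes, whose ranges overlap. With that list Wnt4 had an r of 0.50 and Rspo3 one of 0.32, which were 0.66 and 0.53 with set and genotype removed. Both sides of each correlation come from the same libraries and depth, the parts of the markers in the changes of these genes were not tested, and no p is given.

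**Figure D5:**
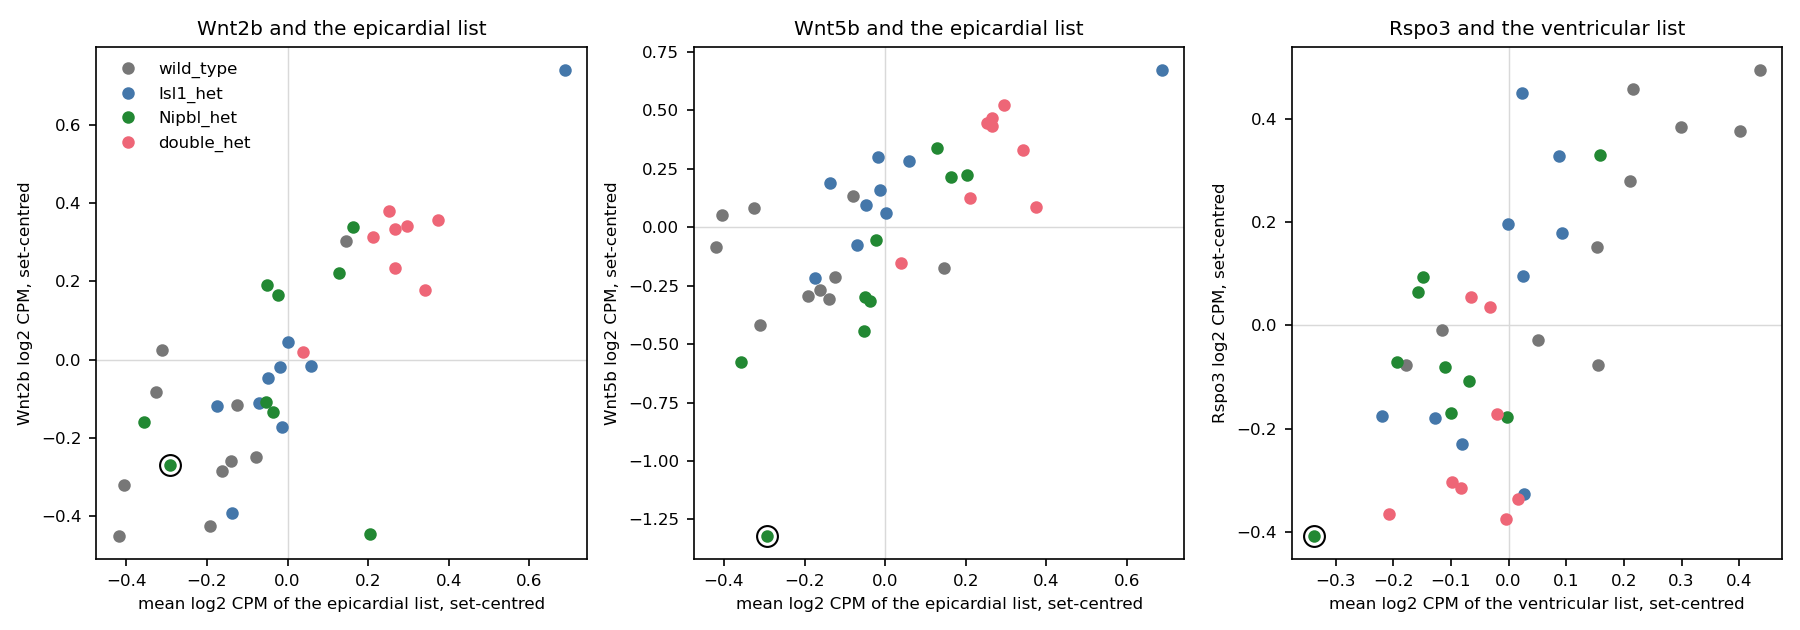
Set-centred log2 CPM of Wnt2b and Wnt5b against the mean of the epicardial markers, and of Rspo3 against the mean of the ventricular markers, over the 36 libraries of sets 1, 2, 5 and 6. Each point is 1 library coloured by genotype, and the open circle marks the library labelled Nipbl_het replicate 2. Pearson r is 0.79, 0.67 and 0.71 from left to right.

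Genes whose levels ran most like each of the 10 were sought among 12080 genes whose log2 CPM averaged 1 or more, by Pearson r of set-centred log2 CPM over the same 36 libraries. For Wnt2b they were Tmem151a (0.83), Ildr2 (0.82) and Upk3b (0.81), the last being 1 of the epicardial markers, a uroplakin of mesothelial cells. For Wnt5b they were Kcne1l (0.92), Spon2 (0.86) and Tcf21 (0.86), and Tcf21, a factor of epicardial and fibroblast lineages, is also on that list. For Rspo3 they were Perp, Cdo1 and Hmgn3, with r of 0.84, 0.83 and 0.83. Lef1 ran with Lgi2 (0.84), Scube1 (0.80) and Slc9a7 (0.79). Wnt5a ran with Pcsk6, Fat4 and Npnt at 0.87, 0.87 and 0.86, and Wnt9b with Adamts8, Cdh11 and Diras2 at 0.83, 0.77 and 0.76. Wnt4 had its best match in Rnd2 (0.90), Wnt2 in Aplnr (0.75), Wnt11 in Smpd2 (0.82) and Axin2 in Zfp598 (0.79).

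Among the 10 genes themselves, the pairs farthest from 0 were Wnt5a with Wnt9b at an r of 0.69, Wnt2b with Wnt11 at −0.69, Wnt4 with Rspo3 at 0.67, Rspo3 with Lef1 at 0.60 and Wnt2b with Rspo3 at −0.60. With set and genotype means both removed, Wnt2b with Wnt11 stayed at −0.64 and Wnt4 with Rspo3 at 0.60, while Wnt5a with Wnt9b was at 0.48, Rspo3 with Lef1 at 0.33 and Wnt2b with Rspo3 at −0.37. The last 3 were thus closer to 0 once genotype means were removed. The ranking also rests on 1 library: Wnt4 with Wnt11 had an r of 0.34 over all 36 libraries, and without Nipbl_het replicate 2 it had 0.78, the farthest from 0 of all pairs. Exons of Wnt5a, Wnt11, Rspo3, Axin2 and Lef1 overlap a gene model on the opposite strand, by 105 to 1208 bases at the longest stretch of 1 exon, with Lef1 at 1208. The strand setting of the counts is not given in the sources used here, so reads from those models could be in the counts of these 5 genes.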

How the data were processed

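Raw read counts per gene symbol were deposited by the authors, 1 column per library, and 0 other columns of values were present. The submitters' processing notes name STAR, featureCounts, GRCm38 and mm10. Annotation, strand setting and filters are not given in the sources used here. Libraries were grouped by title and set number by description label. Low genes were removed by filterByExpr on the 4 genotypes (at least 10 counts per library in enough libraries, at least 15 in total), counts were scaled by TMM and fitted in edgeR 4.0.16 (R 4.3.3, limma 3.58.1) by quasi-likelihood with genotype and set as factors, all 37 libraries in 1 fit. Tests of the 8 comparisons were two-sided, with Benjamini-Hochberg adjustment over 15046 genes and a threshold of 0.05, and SE were computed from F. The models were tested on simulated data. The 10 genes, the pathway and marker lists and the tests were chosen with earlier results of these data known. All 10 genes are named, as is any listed pathway gene past the threshold. Log2 CPM used a prior count of 2. TPM used exon lengths of GENCODE M21, which matched 24366 of 25239 symbols, and gene positions come from it. Alternatives were no set term, replicate number as a block, DESeq2 1.42.0, its size factors, other filters, Xist as covariate, and sets and libraries left out. In 153 pairs of libraries of the same genotype none lay within sampling noise (smallest chi-square per degree of freedom 7.36). Counts of reads without molecular identifiers are not counts of molecules.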

Additional observations from a re-analysis of the deposited data

Results flagged for a closer look

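In 40 groups, the 10 genes in each of 4 genotypes, a test for a single far value found 4, where chance gives about 1 in 20. Wnt2 in the library labelled Nipbl_het replicate 2 stood at 18.0 CPM, far below the next Nipbl_het library at 34.4 CPM. Rspo3 was at 66.4 CPM in wild_type replicate 2, against 47.2 CPM in the next, and at 55.4 CPM in Isl1_het replicate 2, against 42.8 CPM in the next. Lef1 was at 23.4 CPM in wild_type replicate 2, where the next wild_type library was at 18.4 CPM. The Rspo3 and Lef1 calls in double_het and in the Nipbl average held without each of these libraries.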

How the results depend on the processing

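Counts of the 10 members past the threshold moved as follows. In Nipbl_het the count of 0 became 2 without a set term or with the replicate block in place of set, and 1 with DESeq2 or its size factors. In double_het 3 became 0 without set 2, 1 without set 5 and 2 without set 6. Against Isl1_het 0 became 2 with the replicate block in place of set and 1 without set 5, and the Nipbl average of 4 became 1 without set 2. The Isl1 average of 0 became 1 with DESeq2. With 1 library left out the counts ran from 0 to 1, 3 to 4, 0 to 1, 3 to 5 and 0 to 0 in the same order. The replicate block beside the set term gave 4 members in double_het and 0 in Nipbl_het. Replicate numbers do not pair the libraries: 17 of 54 same-numbered pairs had an r over 0.1, from −0.45 to 0.55. Over all genes, alternatives called 31 to 467 in Nipbl_het, 67 to 610 in double_het and 152 to 1045 in the Nipbl average.

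Signs turned only for changes that were not called. In Nipbl_het, Wnt5b was at 0.12 without a set term, 0.20 and 0.17 with the replicate block in place of and beside set, and 0.24 without set 5, where Wnt4 was at 0.026 and Wnt11 at 0.045. Rspo1 was at −0.0096 without set 6. In double_het, Wnt5a was at 0.00071 and Wnt9b at 0.020 with the block in place of set. Axin2 was at −0.0070 with the block beside set, −0.016 without set 2 and −0.14 without set 5, and Wnt2 at 0.010 without set 5 and 0.027 without set 6. In the Nipbl average, Wnt2 was at −0.0073 and Wnt5b at −0.014 without set 2, Wnt11 at 0.068 and Axin2 at −0.036 without set 5, and Wnt5b at −0.056 without set 6. With 1 library left out, Axin2 in double_het ran from −0.081 to 0.11, Wnt2 from −0.15 to 0.074, Wnt11 in Nipbl_het from −0.074 to 0.0030, Wnt5b in Nipbl_het from −0.13 to 0.052, and Wnt5b in the Nipbl average from −0.0034 to 0.086. Sets left out mean fewer libraries; the cause of the other shifts was not tested. Wnt9b had the lowest counts of the 10 genes, 24 to 195 per library.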
